A study of Mus musculus with 12 samples.

Results

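Entire long bones of E16.5 mouse embryos that lack site-1 protease (S1P) in cartilage were compared with those of their WT littermates. The comparison uses 6 of the 12 arrays of the study, chosen by their titles: S1Pcko arrays 1922, 1924 and 1930, and WT arrays 1921, 1923 and 1929. Of the remaining arrays, 4 carry chondroepiphyseal cartilage, by their titles 1 RNA of each genotype and its second amplification, which is set beside the long bones where a change is said to differ between the tissues, and 2 carry calvaria, which entered the normalization only. The S1Pcko embryos are S1P f/f;Col2-Cre: both alleles of the gene are floxed, and Cre is driven by the promoter of the type II collagen gene, which is active in chondrocytes. WT stands for littermates that either lack Cre (S1P f/f, S1P f/+) or are heterozygous with Cre (S1P f/+;Col2-Cre), so that a WT embryo can carry floxed alleles, and in the heterozygote Cre as well. The genotype behind each WT array is not given in the sources used here. Mutants die around birth. The bones had been rolled on filter paper to strip muscle and vessels, and the cartilage at both ends was left on, so each sample is a mixture of cartilage, bone, marrow and what remained of the surrounding tissue.

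S1P, encoded by Mbtps1, is a protease of the secretory pathway that cuts transcription factors held in membranes, among them the SREBPs, which drive genes of cholesterol and fatty acid synthesis, and ATF6, which drives genes of protein folding in the endoplasmic reticulum (ER). A long bone of the embryo starts as cartilage. Its hypertrophic chondrocytes are then invaded by vessels, by osteoclasts, which resorb mineralized matrix, and by osteoblasts, which lay down bone, and blood cells settle in the marrow that opens behind them. Osteoclasts, blood cells, endothelium and skeletal muscle do not descend from cells that express type II collagen. In bulk tissue, fewer cells of a type and less RNA per cell cannot be told apart.

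Arrays 1929 and 1930 are titled as the second amplification. WT arrays 1923 and 1929 share the title 2WT and are 2 amplifications of the same RNA, while the title of 1930 does not say which S1Pcko RNA it repeats. Only 24 of 12121 genes differed by 2-fold or more between arrays 1924 and 1930, and 77 between 1923 and 1929, whereas 384 differed between S1Pcko arrays 1922 and 1924 and 255 between WT arrays 1921 and 1923. Each genotype may thus rest on as few as 2 RNA samples. The p values measure a spread pooled over these arrays and the 4 cartilage arrays, and that spread is partly technical. Xist, the RNA of the inactive X chromosome in females, split the arrays across both genotypes: its log2 signal was 12.32 on S1Pcko array 1922 and 6.09 and 6.23 on S1Pcko arrays 1924 and 1930, against 6.62 on WT array 1921 and 12.14 and 11.45 on WT arrays 1923 and 1929. The Y-linked Eif2s3y ran the other way, at 4.28, 8.27 and 8.16 on S1Pcko arrays 1922, 1924 and 1930 and at 6.71, 4.35 and 4.22 on WT arrays 1921, 1923 and 1929. Uty, also Y-linked, did not follow this split. Its probe was highest on S1Pcko array 1922, where Xist was high, and lowest on WT array 1921 (5.14), where Xist was low. WT arrays 1923 and 1929 had 5.48 and 5.68. These values lie not far above the lowest detected signals (4.96 to 5.09), which limits what Uty can show. The classes used below therefore rest on Xist. The sex of the embryos is not in the labels. Mbtps1 itself did not check the genotypes. Its 2 probes had mean log2 signals of 8.52 ± 0.13 and 7.66 ± 0.05 in S1Pcko bones and 8.70 ± 0.39 and 7.84 ± 0.22 in WT bones (SD, n = 3 arrays each), and neither change passed (-0.18 for both, adjusted p = 0.72 and 0.612). Whether these probes lie in the deleted exons is not given in the sources used here.

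Fgf21, a stress hormone, and genes induced through the transcription factor ATF4 stood far above WT in S1Pcko long bones, whereas markers of osteoclasts and red cells stood below, and markers of cartilage matrix, osteoblasts and endothelium showed no call. A gene was called changed when limma's p, adjusted by Benjamini and Hochberg, was under 0.05 and the groups differed at least 2-fold, and a gene with several probes is given by its brightest one. By this rule 244 of 22653 tested probes changed (1.08%). Counted as genes, 97 of 12121 were higher in S1Pcko bones (0.8%) and 61 were lower (0.503%). Of these, 22 of the higher and 16 of the lower genes belong to 1 of the 24 lists of cell types and pathways examined. The calls depended on how many arrays were taken as independent. With amplifications of the same RNA averaged, which leaves 2 samples per genotype and takes 1930 as the repeat of 1924, 17 of the 158 genes were still called, Gdi2 alone among the lower ones. Whichever single array was left out, 62 of the 97 higher genes and 24 of the 61 lower genes kept their call. In a fit to the 6 long bone arrays alone, without the cartilage arrays, 122 of the 158 genes kept it. Those lost there included Ltf, Pglyrp1, Hbb-bt, Myl2, Mt3, Oscar, Mmp9 and Cxcl12. No called gene changed sign under any alternative.

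Among the 12 largest rises, Fgf21 had log2 signals of 9.88, 9.57 and 9.76 on S1Pcko arrays 1922, 1924 and 1930, against 4.45, 4.43 and 4.36 on WT arrays 1921, 1923 and 1929. All WT arrays were below detection, so the rise is given as at least 25.5-fold, computed against the higher of the measured WT value and the lowest detected signal of that array (adjusted p = 5.6e-09). Cdsn, which encodes corneodesmosin, an adhesion protein of the cornified skin layer, had 9.31, 9.71 and 9.74 on the S1Pcko arrays and 4.46, 4.35 and 4.62 on the WT arrays (at least 23.1-fold, adjusted p = 1.79e-08). Otog, which encodes otogelin, a matrix protein of the inner ear, had 9.57, 9.93 and 9.86 on the S1Pcko arrays and 4.83, 4.82 and 5.58 on the WT arrays. The groups were far apart in each case, and no array of either group came within 3 log2 units of the other. Fibcd1, a chitin-binding membrane receptor, was at least 18.3-fold higher in S1Pcko bones (adjusted p = 2.04e-08), and Avil (advillin), which bundles actin, was higher by 4.26 log2 units (standard error 0.19, adjusted p = 4.07e-07). Slc7a3, Trib3, Chac1 and Ddit3, members of the ATF4 list, are described below their promoters. Cxadr, a cell adhesion protein and virus receptor, was higher by 3.11 (standard error 0.31, adjusted p = 0.000396) and lost its call with amplifications averaged (adjusted p = 0.181). Its dimmer probe changed by 0.98. Rmst, a long noncoding RNA, was at least 5.43-fold higher, and Cyb5r2, a cytochrome b5 reductase, at least 4.82-fold.

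**Figure D1:**
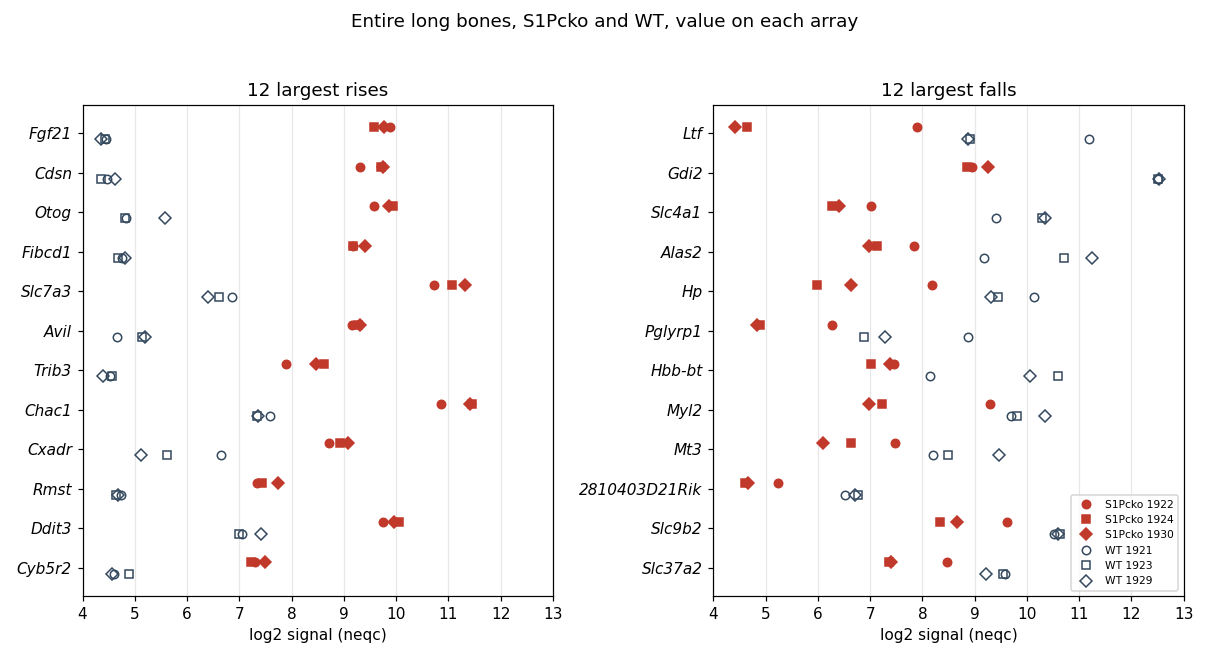
Log2 signal on each array (x axis) for the 12 genes with the largest rises (left) and the 12 with the largest falls (right) in S1Pcko long bones, S1Pcko arrays filled red and WT arrays open grey. In the right panel S1Pcko array 1922 (red circles) lies nearer to the WT arrays than 1924 and 1930 for Ltf (7.89 against 4.65 and 4.41), Hp and Myl2.

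ATF4 is translated when amino acids run short or the ER is under stress, and it binds the composite element CARE, whose core is TGATGNAA. Promoter windows of 300 bases, most of them upstream of the start, of 3 of the genes that rose most are printed because each holds that core. They are from RefSeq (GRCm38.p6), each on the strand of the gene, and the capitals mark the core, here in its reverse complement. Fgf21 is at chr7:45615441-45615740 (minus strand), Trib3 at chr2:152344011-152344310 (minus strand) and Chac1 at chr2:119350992-119351291 (plus strand).
Fgf21: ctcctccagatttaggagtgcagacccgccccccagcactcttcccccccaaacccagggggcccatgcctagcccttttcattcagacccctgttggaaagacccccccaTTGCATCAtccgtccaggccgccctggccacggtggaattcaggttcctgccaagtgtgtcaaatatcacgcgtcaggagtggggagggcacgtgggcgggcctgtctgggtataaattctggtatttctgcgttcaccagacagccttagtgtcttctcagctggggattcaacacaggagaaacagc
Trib3: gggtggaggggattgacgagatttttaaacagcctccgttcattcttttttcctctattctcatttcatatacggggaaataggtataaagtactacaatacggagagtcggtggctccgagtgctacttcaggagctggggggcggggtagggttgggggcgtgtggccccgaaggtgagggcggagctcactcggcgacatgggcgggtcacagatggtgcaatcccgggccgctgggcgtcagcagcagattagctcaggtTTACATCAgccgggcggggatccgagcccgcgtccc
Chac1: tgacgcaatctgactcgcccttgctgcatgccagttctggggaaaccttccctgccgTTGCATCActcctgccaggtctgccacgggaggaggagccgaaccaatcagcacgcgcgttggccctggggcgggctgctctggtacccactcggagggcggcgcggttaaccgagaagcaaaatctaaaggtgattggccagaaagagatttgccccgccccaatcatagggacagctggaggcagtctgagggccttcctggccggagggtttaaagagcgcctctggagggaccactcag

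Counted from the start site, the first base of the core lies at -139 in Fgf21, at -193 in Chac1 and at 14 in Trib3. Searched on both strands, TGATGNAA was found in 7 of the 16 windows of called ATF4 list members that the RefSeq table held (43.8%): Fgf21, Trib3, Chac1, Asns, Atf3, Nupr1 and Slc7a11. It was found in 10 of the 28 windows over the whole list (35.7%), in 13 of 73 over all genes that rose (17.8%), in 1 of 46 over those that fell (2.17%) and in 1219 of 27025 over all genes of the table (4.51%). A match is a description of these letters and not of binding.

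Genes that respond to ATF4 were the list with the most calls. The list was written with earlier results of these data known, so its counts are a description and no test. Of its 33 genes 29 were measured, 20 of them were higher in S1Pcko bones and none was lower (0.8% of all genes were higher), 27 of the 29 had every S1Pcko array above every WT array (9.26% of all genes), and the median log2 change was 1.42, or 1.29 once genes below detection are set to their bounds, against -0.01 over all genes. The mean log2 signal of the 29 genes was 9.34, 9.66 and 9.67 on S1Pcko arrays 1922, 1924 and 1930 and 7.91, 7.82 and 7.84 on WT arrays 1921, 1923 and 1929. The groups did not overlap, and array 1922 was the lowest of the S1Pcko arrays. The count of 20 was 18 to 23 when single arrays were left out and 5 with amplifications averaged: Fgf21, Slc7a3, Trib3, Chac1 and Ddit3.

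Among the factors, Ddit3 (CHOP), a partner and target of ATF4, had log2 signals of 9.74, 10.06 and 9.95 on the S1Pcko arrays and 7.05, 6.99 and 7.41 on the WT arrays (change 2.77, standard error 0.15, adjusted p = 2.28e-06). Atf5 was higher by 1.81, and Atf3, below detection on every WT array, was at least 2.62-fold higher. Atf4 itself was higher by 1.08 on its brighter probe (standard error 0.19, adjusted p = 0.0136), a call that was lost without array 1924, 1930, 1923 or 1929 (adjusted p up to 0.0807), and by 0.00 on its dimmer one. Cebpg, a bZIP factor that pairs with ATF4, was higher by 1.03 (adjusted p = 0.015), lost without 1924, 1930 or 1929. Among the feedback genes, Trib3, a pseudokinase that restrains ATF4, had 7.90, 8.61 and 8.47 on the S1Pcko arrays and 4.52, 4.57 and 4.39 on the WT arrays, at least 9.62-fold higher (adjusted p = 1.11e-06). Chac1, which degrades glutathione, had 10.85, 11.45 and 11.42 on the S1Pcko arrays and 7.58, 7.34 and 7.36 on the WT arrays (change 3.81, standard error 0.17, adjusted p = 4.07e-07). For both, array 1922 was the lowest of its group and still more than 3 log2 units above every WT array.

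Of the 6 amino acid transporters measured on the list, 4 were called higher. Slc7a3, a carrier of cationic amino acids, had log2 signals of 10.72, 11.06 and 11.32 on the S1Pcko arrays and 6.85, 6.61 and 6.39 on the WT arrays (change 4.41, standard error 0.18, adjusted p = 2.69e-07). The glycine transporter Slc6a9 was higher by 2.09, the leucine carrier Slc7a5 by 1.81 and the cystine carrier Slc7a11 by 1.29, while the neutral carrier Slc1a4 (0.90, adjusted p = 0.0847) was not called and Slc7a1 was at 5.64, 5.73 and 5.34 on the S1Pcko arrays and 5.54, 5.32 and 5.81 on the WT arrays. Of the enzymes, Asns, which makes asparagine, was higher by 2.03, Gpt2, an alanine transaminase, by 1.61, Mthfd2, of mitochondrial folate metabolism, by 1.56 and Shmt2, which makes glycine, by 1.18. Cth, of cysteine synthesis, was called too, but it was below detection on every WT array and its bound, at least 1.78-fold, is under 2-fold. Psat1 and Phgdh, of serine synthesis, had changes of 0.97 (adjusted p = 0.0345) and 1.05 (adjusted p = 0.0649) and were not called. Nupr1, a small nuclear stress protein, Eif4ebp1, an inhibitor of cap-dependent translation, and Stc2, a secreted glycoprotein, were higher by 1.42, 1.11 and 2.24. Stc2 was at 8.16, 8.79 and 8.85 on the S1Pcko arrays and at 7.19, 5.84 and 6.06 on the WT arrays, so the WT array 1921 came within 1 log2 unit of S1Pcko array 1922. Outside the list, the aminoacyl-tRNA synthetases Sars and Nars were higher by 1.28 and 1.03, Nars losing its call without 1924 or 1921, and Ppp1r15a (GADD34), which restores translation after ATF4 is induced, by 1.72.

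The list of ER chaperones and degradation factors held 1 call. Of its 18 genes 13 were measured, with a median log2 change of 0.08. Herpud1, which takes part in the disposal of unfolded proteins, was at 9.68, 10.03 and 9.86 on the S1Pcko arrays and at 8.54, 8.91 and 9.02 on the WT arrays (change 1.03, standard error 0.16, adjusted p = 0.00707), and it fell short of 2-fold without array 1924 (0.95) or 1921 (0.89). Hspa5 (BiP), the major chaperone of the ER lumen, was at 5.60, 6.40 and 6.23 on the S1Pcko arrays and 5.52, 6.16 and 5.92 on the WT arrays. Its probe thus read near the lowest detected signals (4.96 to 5.09), which limits what it can show. Calr, Derl3, Dnajb11, Manf and Sdf2l1 were not measured. Xbp1 and Hsp90b1 differed by -0.02 and 0.04. Outside the list, Dnajb9, a co-chaperone of the ER, was called higher by 1.22 (adjusted p = 0.0384), which was lost without array 1924, 1930, 1923 or 1929 (adjusted p up to 0.174). Of the cell cycle genes 12 were measured and none was called, with a median of -0.19.

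All 15 measured enzymes of cholesterol synthesis had a lower mean in S1Pcko bones, but none reached a 2-fold change. The mean log2 signal of the list was 8.51, 8.45 and 8.46 on the S1Pcko arrays and 9.18, 9.03 and 9.22 on the WT arrays, so that the groups were apart by less than 1 log2 unit with little spread within each. In 13 of the 15 genes every S1Pcko array lay below every WT array (10.2% of all genes), and the median change was -0.70. Those with an adjusted p under 0.05 but a change under 2-fold included Sqle, the squalene epoxidase (-0.93, standard error 0.14, adjusted p = 0.00474), Fdps, the farnesyl diphosphate synthase (-0.90, adjusted p = 0.00941), and Msmo1, a sterol demethylase (-0.87, adjusted p = 0.00428). Hmgcs1, an early enzyme of the pathway, was at 12.26, 11.91 and 12.09 on the S1Pcko arrays and 13.09, 12.71 and 12.35 on the WT arrays (change -0.63, adjusted p = 0.161). A sterol response element TCACNCCAC, on either strand, was in 1 of 15 promoter windows of the list (6.67%) and in 1.44% of all windows.

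In fatty acid synthesis, Scd1, the desaturase that makes oleate, was the 1 gene of 12 measured that was called lower. Its log2 signal was 9.33, 8.92 and 8.99 on the S1Pcko arrays and 10.79, 10.36 and 10.12 on the WT arrays (change -1.34, standard error 0.20, adjusted p = 0.00505). The groups did not overlap, and the call held without any single array but not with amplifications averaged (adjusted p = 0.282). Insig1, the sterol-regulated retention factor of the SREBPs, Fads2, a desaturase of polyunsaturated fatty acids, and Scd2 had changes of -0.95, -0.92 and -0.82 with adjusted p = 0.00476, 0.00505 and 0.0116, under 2-fold. The median over the list was -0.71, and Acaca alone had a positive change (0.21).

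The chondrocyte compartments carried 1 call, Mmp13. None of 15 measured cartilage matrix genes was called, with changes between -0.44 and 0.63 and a median of 0.27. Their mean log2 signal was 10.64, 11.24 and 11.16 on S1Pcko arrays 1922, 1924 and 1930 and 11.53, 10.43 and 10.53 on WT arrays 1921, 1923 and 1929, and the groups overlapped, with WT array 1921 highest and WT array 1923 lowest. Acan, which encodes aggrecan, was at 12.06, 12.81 and 12.63 on the S1Pcko arrays and 12.94, 11.15 and 11.51 on the WT arrays, in the same order of arrays. Col2a1, type II collagen, differed by 0.07 (adjusted p = 0.861), close to the top of the signal range. Without WT array 1921, 1 gene of this list would be called higher. Among hypertrophic markers, Mmp13, the collagenase with which hypertrophic chondrocytes and osteoblasts degrade matrix, was at 13.10, 12.39 and 12.55 on the S1Pcko arrays and 14.10, 14.14 and 14.07 on the WT arrays (change -1.42, standard error 0.18, adjusted p = 0.0023), and its dimmer probe changed by -1.60. Every S1Pcko array lay below the WT arrays, 1922 the least so. Col10a1, the collagen of hypertrophic cartilage, was at 11.69, 11.37 and 11.20 on the S1Pcko arrays and 12.86, 10.57 and 10.63 on the WT arrays, with S1Pcko inside the WT range.

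No osteoblast or osteocyte gene was called among 16 measured, and the median change was -0.23. Their mean log2 signal was 10.18, 9.62 and 9.64 on the S1Pcko arrays and 10.03, 10.01 and 10.07 on the WT arrays, so that S1Pcko array 1922 was above every WT array and the other S1Pcko arrays were below. Bglap, which encodes osteocalcin of mature osteoblasts, was high on array 1922 as well, at 12.21, with 9.84 and 9.87 on S1Pcko arrays 1924 and 1930, against 10.13, 9.46 and 9.73 on the WT arrays. Here the other S1Pcko arrays lay inside the WT range. Ibsp, bone sialoprotein, was at 14.16, 13.53 and 13.51 on the S1Pcko arrays and 13.92, 14.09 and 14.30 on the WT arrays. Col1a1, the main collagen of bone, differed by -0.05 (adjusted p = 0.942), close to the top of the signal range. Sp7, a transcription factor osteoblasts need, differed by -0.22 (adjusted p = 0.54). The lowest change was that of Kazald1, a secreted protein of bone (-0.85, adjusted p = 0.0391, under 2-fold). Without S1Pcko array 1922, or without WT array 1921, 1 gene of the list would be called lower.

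**Figure D2:**
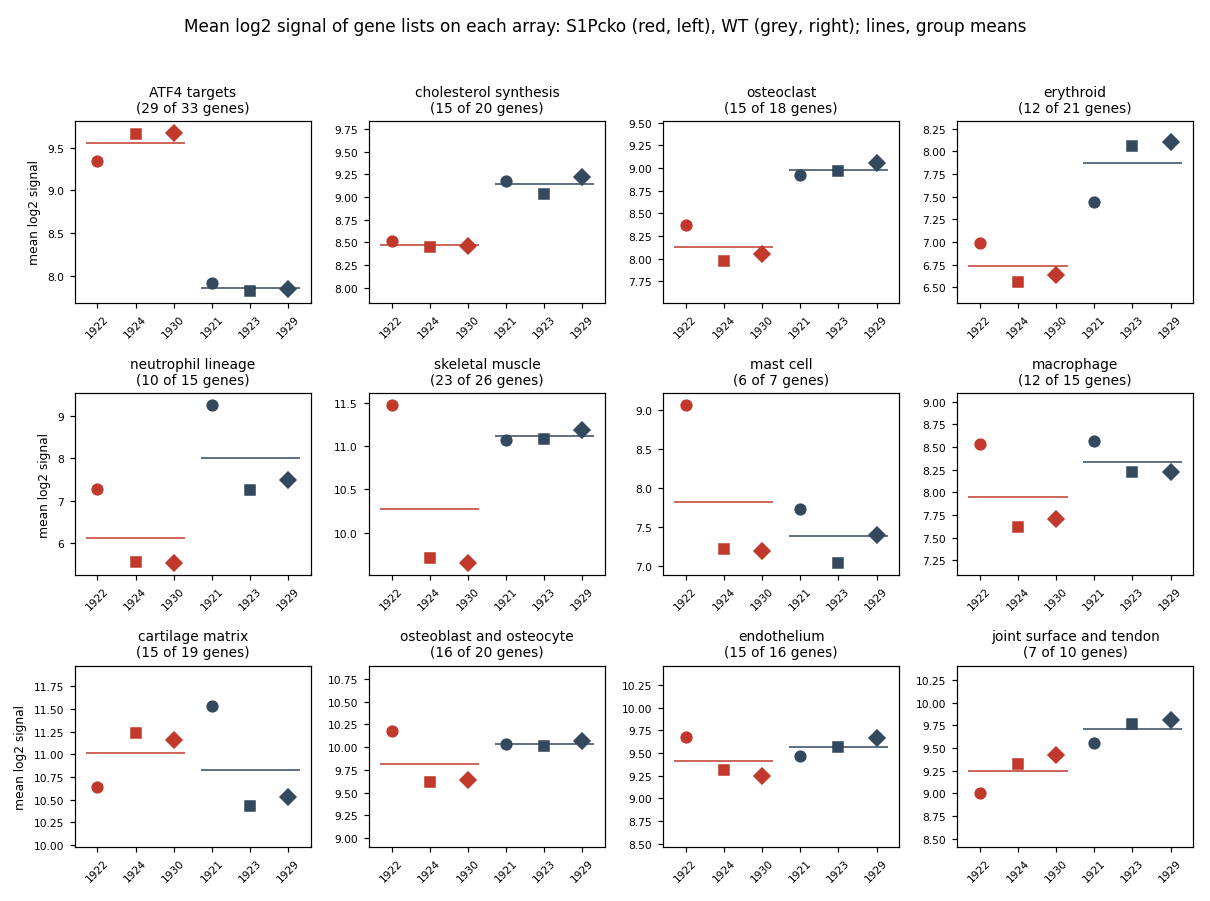
Mean log2 signal of the measured genes of 12 lists on each array, S1Pcko arrays in red on the left and WT arrays in grey on the right, with a line at the mean of each group (each panel has its own scale of at least 2 log2 units). The groups are apart for ATF4 targets, cholesterol synthesis, osteoclast, erythroid and tendon genes, while for skeletal muscle and mast cell genes array 1922 (11.47 and 9.06) stands above the other S1Pcko arrays and every WT array.

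Osteoclast genes were the compartment with the most falls. Of 15 measured, 8 were lower in S1Pcko bones and none was higher (0.503% of all genes were lower). In 11 every S1Pcko array lay below every WT array (10.2% of all genes), and the median log2 change was -1.02. The mean log2 signal was 8.37, 7.98 and 8.05 on the S1Pcko arrays and 8.92, 8.97 and 9.05 on the WT arrays, with no overlap and array 1922 nearest to WT. The count of 8 was 8 without array 1922, 7 without 1921 or 1923, 4 without 1929 and 3 without 1924 or 1930. With amplifications averaged it was 0, and with Xist class (high or low Xist on the array) as a block, a choice made after seeing the data, it was 5.

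The genes called are known for resorption, for cell fusion and for signalling. Ctsk, cathepsin K, which digests bone collagen, was at 12.66, 11.87 and 11.83 on the S1Pcko arrays and 13.67, 13.41 and 13.71 on the WT arrays (change -1.47, standard error 0.21, adjusted p = 0.00377). Tcirg1, a subunit of the proton pump that acidifies the resorption space, was at 8.84, 8.59 and 8.48 on the S1Pcko arrays and 9.71, 9.77 and 10.06 on the WT arrays (change -1.21, standard error 0.15, adjusted p = 0.00202). Car2, the carbonic anhydrase that supplies the protons, and Ostm1, a partner of the chloride exchanger of the same membrane, were lower by -1.17 and -1.02, and both lost their call without 1924, 1930 or 1929. Dcstamp and Ocstamp, needed for the fusion of osteoclast precursors, were lower by -1.18 (adjusted p = 0.00259) and -1.52 (adjusted p = 0.00929). The call of Ocstamp was lost without array 1924 or 1930 (adjusted p = 0.057 and 0.0539), whereas those of Ctsk, Tcirg1 and Dcstamp held without any single array. Oscar, a costimulatory receptor, was lower by -1.53 (adjusted p = 0.0138), lost without 1924, 1930 or 1929. Mmp9, a gelatinase that osteoclasts secrete and other marrow cells express, was lower by -1.30 (adjusted p = 0.0487), lost without any array other than 1922 (adjusted p up to 0.2). The regulators were not called: Nfatc1, the master transcription factor, was at 9.87, 10.27 and 10.10 on the S1Pcko arrays and 10.13, 10.18 and 10.25 on the WT arrays, and Tnfrsf11a (RANK), the receptor of the osteoclast signal, had a change of -0.53 (adjusted p = 0.103). Tnfsf11 (RANKL), the signal itself, listed with the osteoblast genes, had a change of -0.24 (adjusted p = 0.556).

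Among called genes outside the lists, several are known from osteoclasts, a description made after their values were seen. Slc9b2, a sodium-proton exchanger of osteoclasts, was at 9.62, 8.34 and 8.66 on the S1Pcko arrays and 10.52, 10.63 and 10.60 on the WT arrays (change -1.71, standard error 0.32, adjusted p = 0.0194), lost without 1924, 1930, 1923 or 1929. Slc37a2, a sugar phosphate transporter of macrophages and osteoclasts, was at 8.48, 7.37 and 7.40 on the S1Pcko arrays and 9.58, 9.54 and 9.21 on the WT arrays (change -1.69, adjusted p = 0.00634). The chemokine Ccl9 was lower by -1.68 (adjusted p = 0.00259) and Ckb, the brain-type creatine kinase, by -1.14 (adjusted p = 0.00345). In all of them array 1922 lay between the other S1Pcko arrays and WT.

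Slc4a1 and Alas2, both genes of the red cell lineage, fell by more than any osteoclast gene. Of 21 listed erythroid genes 12 were measured, 4 were lower in S1Pcko bones and none was higher (0.503% of all genes were lower), with a median log2 change of -0.90, or -0.85 once such genes are set to their bounds. Slc4a1, the anion exchanger of the red cell membrane, was at 7.02, 6.27 and 6.41 on the S1Pcko arrays and 9.41, 10.28 and 10.34 on the WT arrays (change -3.44, standard error 0.25, adjusted p = 3.29e-05). Alas2, the first enzyme of heme synthesis in erythroid cells, was at 7.83, 7.13 and 6.97 on the S1Pcko arrays and 9.17, 10.71 and 11.24 on the WT arrays (change -3.06, standard error 0.44, adjusted p = 0.00401). Neither overlapped between the groups, and in both WT array 1921 was the lowest WT array and 1922 the highest S1Pcko array. Sptb, beta spectrin of the red cell skeleton, was lower by -1.42 (adjusted p = 0.00578), and Hba-a1, adult alpha globin, was at 13.94, 13.36 and 13.48 on the S1Pcko arrays and 14.74, 14.59 and 14.62 on the WT arrays (change -1.06, adjusted p = 0.00476, and -0.95 without array 1924). In WT bones Hba-a1 and the brightest probe of Hbb-bs, a beta globin, lay close to the top of the signal range, which limits the size of their changes. Beta globin probes also share near-identical genes and are uncertain. The 9 probes of Hbb-bs fell by between 0.35 and 2.72, the brightest of them by the least (0.35), and 3 passed, while Hbb-bt was lower by -2.32 (adjusted p = 0.0315, lost without 1924, 1930, 1923 or 1929).

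The fall did not extend evenly over the erythroid list. The embryonic globins Hbb-y and Hba-x were high on WT arrays 1923 (6.57 and 6.97) and 1929 (6.84 and 7.76), near the detection limit on WT array 1921 (4.57 and 4.74), and between 4.53 and 5.25 on the S1Pcko arrays. Gata1 and Klf1, the erythroid transcription factors, were close to the detection limit (highest signals 5.42 and 5.98) and not called. Tfrc, the transferrin receptor, had a change of -0.73 (adjusted p = 0.133), and Ank1, which muscle expresses too, was at 9.30 on S1Pcko array 1922 and 7.78 and 7.62 on S1Pcko arrays 1924 and 1930, against 8.35, 8.89 and 8.95 on the WT arrays. The mean over the 12 genes was 6.99, 6.56 and 6.64 on the S1Pcko arrays and 7.44, 8.06 and 8.10 on the WT arrays, without overlap. The count of 4 was 3 without array 1924 and 6 without 1921, and 0 with amplifications averaged, where Slc4a1 had a change of -3.18 with adjusted p = 0.0825. The promoter window of Alas2 is printed because GATA factors, which bind AGATAA, are known to drive this gene, and the capitals mark its match, at -86 from the start and in reverse complement (RefSeq, GRCm38.p6, chrX:150547167-150547466, plus strand).
Alas2: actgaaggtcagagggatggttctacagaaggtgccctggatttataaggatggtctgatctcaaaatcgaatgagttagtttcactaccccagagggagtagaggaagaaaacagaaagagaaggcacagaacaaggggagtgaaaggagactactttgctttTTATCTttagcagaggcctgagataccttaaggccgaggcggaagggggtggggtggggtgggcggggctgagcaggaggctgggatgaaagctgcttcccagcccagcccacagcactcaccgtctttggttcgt

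The sequence AGATAA, on either strand, was in 5 of 14 windows of the erythroid list (35.7%), with Alas2 the 1 match among 3 windows of called members, and in 12.7% of all windows. No binding was measured.

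Neutrophil genes had the lowest median change of the 24 lists, -2.08 over 10 measured genes, and 1 call. Ltf, lactoferrin of neutrophil granules, was at 7.89, 4.65 and 4.41 on S1Pcko arrays 1922, 1924 and 1930 and 11.18, 8.92 and 8.88 on WT arrays 1921, 1923 and 1929 (change -4.01, standard error 0.83, adjusted p = 0.0324). The call was lost without any array other than 1922 (adjusted p = 0.0582 to 0.157). S100a8, a calcium-binding protein that fills the neutrophil cytosol, was at 10.50, 6.29 and 6.37 on the S1Pcko arrays and 12.64, 10.61 and 10.43 on the WT arrays (adjusted p = 0.0973). Here S1Pcko array 1922 lay inside the WT range, while 1924 and 1930 were more than 4 log2 units below every WT array. The list mean showed this split, at 7.29, 5.56 and 5.54 on the S1Pcko arrays and 9.25, 7.26 and 7.50 on the WT arrays. Without array 1922, 6 genes of the list were called lower. Lcn2, lipocalin, which other cells also make under stress, had a positive change, at 8.96 to 9.55 on the S1Pcko arrays and 9.12, 6.98 and 7.57 on the WT arrays (adjusted p = 0.165). Outside the list, Hp, haptoglobin, was lower by -2.69 (adjusted p = 0.0114, and 0.0599 without array 1930) and Pglyrp1, a granule protein that binds bacterial cell walls, by -2.35 (adjusted p = 0.0311, lost without 1924, 1930 or 1929).

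The other blood lineages had no call. Macrophage genes had a median of -0.19 over 12 measured, with list means of 8.53, 7.62 and 7.71 on the S1Pcko arrays and 8.56, 8.22 and 8.22 on the WT arrays, and 4 of them would be called lower without array 1922. Lyz2, lysozyme of macrophages and granulocytes, was at 10.18, 8.31 and 8.30 on the S1Pcko arrays and 11.08, 10.17 and 10.39 on the WT arrays (adjusted p = 0.09). The complement genes C1qa, C1qb and C1qc had changes between -0.16 and 0.23. In the B cell precursor list 4 of 9 genes were measured, and Igll1, of the surrogate light chain, was at 6.93 on WT array 1921 and between 4.28 and 5.28 on the other 5 arrays. Mast cell genes were high on 1 array: the list mean was 9.06, 7.22 and 7.19 on the S1Pcko arrays and 7.73, 7.04 and 7.40 on the WT arrays. Cpa3, a mast cell protease, was at 11.03 on S1Pcko array 1922 and between 8.35 and 8.81 on the other 5 arrays. Without array 1922 the median change of the list was -0.30, against 0.46 with it.

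Skeletal muscle genes separated S1Pcko array 1922 from the other S1Pcko arrays, not the genotypes. All 23 measured genes had a negative change (-0.37 to -1.25, median -0.90), none was called, and only 1 had every S1Pcko array below every WT array (10.2% of all genes). The mean log2 signal was 11.47 on S1Pcko array 1922 and 9.71 and 9.65 on S1Pcko arrays 1924 and 1930, against 11.07, 11.08 and 11.18 on the WT arrays. Myh8, the perinatal myosin, was at 14.71, 13.15 and 13.26 on the S1Pcko arrays and 14.62, 14.59 and 14.16 on the WT arrays. Myl1, a myosin light chain, was at 12.94, 9.45 and 9.54 on the S1Pcko arrays and 12.44, 11.62 and 11.31 on the WT arrays, the widest spread within a group on this list. Without array 1922, 19 of the 23 genes were called lower. Myl2, a light chain of slow and cardiac muscle outside the list, was called lower at -2.12 (adjusted p = 0.0487), a call lost without any array other than 1922. The amount of muscle left on the bones was not recorded in the sources used here, and its part in the other results was not tested. Mt3, a metallothionein, was lower by -1.98 (adjusted p = 0.02), lost without 1924, 1930, 1923 or 1929. Epidermal Krt14, the basal keratin, was at 10.16 on S1Pcko array 1922, against 5.04 and 4.57 on S1Pcko arrays 1924 and 1930 and 4.53 to 4.63 on the WT arrays.

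Among all called genes, array 1922 lay nearest to WT more often than over all genes. It was the lowest S1Pcko array in 73 of the 97 higher genes (75.3%, against 42% over all genes) and the highest in 50 of the 61 lower genes (82%, against 33.6%). These shares describe the called genes and were given no test. On array 1922 the mean log2 signals of the muscle, mast cell and epidermis lists (11.47, 9.06 and 8.02) stood above every WT array. So did those of other lists, by less. Among them were smooth muscle and pericyte (8.51), osteoblast and osteocyte (10.18), nerve (6.28) and endothelium (9.68, against at most 9.67 in WT). For mast cell and epidermis genes, array 1922 was thus farther from WT than 1924 and 1930. The part of these tissues in the position of 1922 was not tested.

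Endothelial genes gave no call. None of 15 measured was called, the changes ran from -0.66 to 0.12 with a median of -0.11, and the list means were 9.68, 9.31 and 9.25 on the S1Pcko arrays and 9.47, 9.57 and 9.67 on the WT arrays, which overlap. Pecam1, an adhesion protein of endothelial junctions, was at 11.31, 10.72 and 10.76 on the S1Pcko arrays and 10.91, 11.04 and 10.64 on the WT arrays. Emcn, which marks the vessels of bone, was at 11.36, 10.95 and 10.82 on the S1Pcko arrays and 11.04, 11.06 and 11.24 on the WT arrays. None of 7 smooth muscle and pericyte genes was called either, with a median of 0.13. Of 9 measured signals of vascular invasion 3 were lower (0.503% of all genes), a count that was 1 with Xist class as a block, 1 to 3 when single arrays were left out and 0 with amplifications averaged. They are Mmp13 and Mmp9, given above, and Cxcl12, the chemokine of marrow stroma. Cxcl12 was at 11.66, 10.67 and 10.68 on the S1Pcko arrays and 12.66, 12.15 and 12.03 on the WT arrays (change -1.28, standard error 0.26, adjusted p = 0.0314), and its call was lost without any array other than 1922 (adjusted p up to 0.156). Vegfa, which draws vessels into hypertrophic cartilage, was at 10.70, 10.66 and 10.81 on the S1Pcko arrays and 10.66, 10.18 and 9.64 on the WT arrays (change 0.56, adjusted p = 0.307).

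Tendon and nerve genes gave 1 call between them. Tnmd, tenomodulin of tendon cells, was at 12.81, 13.04 and 13.06 on the S1Pcko arrays and 13.32, 14.05 and 14.10 on the WT arrays (change -0.85, adjusted p = 0.049, under 2-fold). The 7 measured genes of joint surface and tendon had a median of -0.47, and 2 of them were called lower without WT array 1921. Sox10, a transcription factor of Schwann cells and other neural crest derivatives, was higher in S1Pcko bones, at 7.76, 8.32 and 8.37 on the S1Pcko arrays and 6.89, 6.87 and 6.67 on the WT arrays (change 1.34, standard error 0.19, adjusted p = 0.00364). The other measured nerve genes, Prph, Stmn2 and Mbp, had changes of 0.51, 0.02 and -0.17 and were not called.

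Cartilage of the same genotypes showed where the changes were shared. The cartilage arrays hold 1 RNA of each genotype, amplified in 2 rounds, so that the spread within a genotype is technical and the calls compare those RNAs. In cartilage 22 of the 29 measured ATF4 genes were called higher (median 1.66, with 1.2% of all genes higher) and 10 of the 15 cholesterol genes lower (median -1.12, against -0.70 in long bone, with 1.4% of all genes lower), while no osteoclast or erythroid gene was called (medians 0.28 and -0.06). A call in 1 tissue and not in the other is no test of a difference, which was taken from the interaction term of the same limma fit. The change differed between the tissues for 33 of 12121 genes (0.272%). For 10 of these the call held whichever long bone array was left out, and none of the 50 probes behind the differences was called with amplifications averaged, where cartilage has 1 sample per genotype that is assumed to vary like the long bones.

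Of the osteoclast list, 3 genes differed. The difference, long bone minus cartilage, was -2.66 for Ocstamp (adjusted p = 0.0265), which changed by -1.52 in long bone and 1.14 in cartilage, -2.13 for Ctsk (-1.47 and 0.66, adjusted p = 0.034) and -1.51 for Dcstamp (-1.18 and 0.34, adjusted p = 0.0414). All 3 lost this call without array 1924, 1930, 1923 or 1929. In the osteoblast list, Ibsp differed by -2.46 (-0.37 in long bone, 2.08 in cartilage, adjusted p = 0.00837), and so did Ifitm5, a membrane protein of osteoblasts, by -2.32 (adjusted p = 0.0379, lost without the same 4 arrays), while Sparc, a matrix protein, differed by 3.61 (-0.28 in long bone, -3.89 in cartilage, adjusted p = 0.00112). Atf4 differed by -2.38 on its brighter probe (1.08 in long bone, 3.46 in cartilage, adjusted p = 0.0104), the 1 gene of its list to do so. Its dimmer probe did not differ (0.00 in long bone, 0.18 in cartilage, adjusted p = 0.737). No cholesterol gene differed, with differences from 0.05 to 1.06, and no erythroid gene did. The erythroid genes called lower in long bone, Slc4a1, Alas2, Sptb and Hba-a1, changed by -1.18, -1.49, -0.52 and -0.44 in cartilage. Gdi2 differed by -3.38 (-3.50 and -0.12, adjusted p = 0.000133). Rmst, Mmp3 (the matrix protease stromelysin) and Pdgfd (a platelet-derived growth factor) were below detection on every WT long bone array, so their fitted differences rest on background values. Their rises in long bone were at least 5.43-fold, 4.83-fold and 3.06-fold, and the fitted differences were 2.59 (adjusted p = 0.000413), 2.09 (adjusted p = 0.0223, lost without 1930, 1923 or 1929) and 4.43 (adjusted p = 0.000112), with cartilage changes of 0.23, 0.48 and -2.21. Those of Ibsp, Sparc, Atf4, Rmst, Pdgfd and Gdi2 held whichever long bone array was left out.

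**Figure D3:**
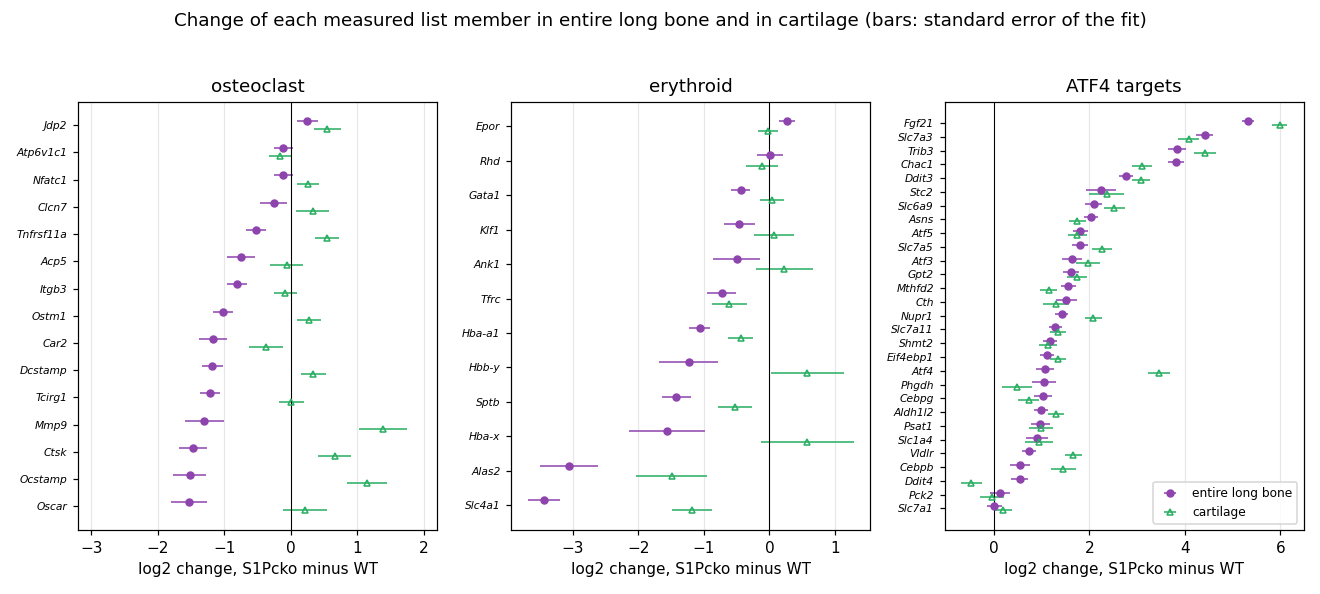
Log2 change, S1Pcko minus WT, of each measured gene of the osteoclast, erythroid and ATF4 lists in entire long bone (filled circles) and in cartilage (open triangles), with the standard error of the fit as bars. Of the 15 osteoclast genes 14 lie left of 0 in long bone, Jdp2 (0.25) apart, and most lie at or right of 0 in cartilage. Most ATF4 genes lie close together in both tissues, Atf4 itself (1.08 and 3.46 on its brighter probe) being the exception by the test.

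Gdi2, which recycles Rab proteins between membranes, had the largest fall outside the blood genes. Its brightest probe was at 8.94, 8.85 and 9.25 on the S1Pcko arrays and 12.51, 12.51 and 12.53 on the WT arrays (change -3.50, standard error 0.14, adjusted p = 2.69e-07). Its other probes changed by -0.03 and 0.44, neither of them called, so the fall belongs to 1 of 3 probes. The rise of Pdgfd likewise belongs to its brightest probe, since the other changed by -0.24. Arsb, a lysosomal sulfatase that acts on chondroitin and dermatan sulfate, was at 9.51, 9.47 and 9.23 on the S1Pcko arrays and 10.67, 10.71 and 10.98 on the WT arrays (change -1.38, adjusted p = 0.000337), a fall in which all 3 S1Pcko arrays took part alike. The matrix genes Itgbl1 and Cilp2 fell by 1.24 and 1.11 with the same evenness, Cilp2 being at 8.22, 8.62 and 8.47 on the S1Pcko arrays and 9.74, 9.51 and 9.39 on the WT arrays. 2810403D21Rik, an unnamed transcript, was lower by -1.84 on its brightest probe (adjusted p = 0.00123) and had 0.26 on the other.

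Because both genotypes hold arrays of high and of low Xist, each list can be compared within these classes, without a test. Each contrast may set only 1 S1Pcko RNA against 1 WT RNA, though the title of 1930 does not say which RNA it repeats. The first contrast sets S1Pcko array 1922 against WT arrays 1923 and 1929, the other S1Pcko arrays 1924 and 1930 against WT array 1921. ATF4 genes had median differences of 1.16 and 1.56 in the Xist-high and Xist-low contrasts, cholesterol genes -0.63 and -0.72, osteoclast genes -0.68 and -1.07 and erythroid genes -0.58 and -0.91. These 4 lists kept their direction in both, which is not particular to them. Other lists did so too, among them fatty acid synthesis (-0.73 and -0.80), vascular invasion (-0.36 and -0.59) and joint surface and tendon (-1.13 and -0.17). Neutrophil genes had -0.16 and -4.34, skeletal muscle genes 0.35 and -1.37, macrophage genes 0.29 and -0.55 and mast cell genes 2.32 and -0.34, so the differences of these lists came from the Xist-low contrast or changed sign. With Xist class as a block on the 6 arrays, 177 probes were called and 109 of the 158 genes kept their call.

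**Figure D4:**
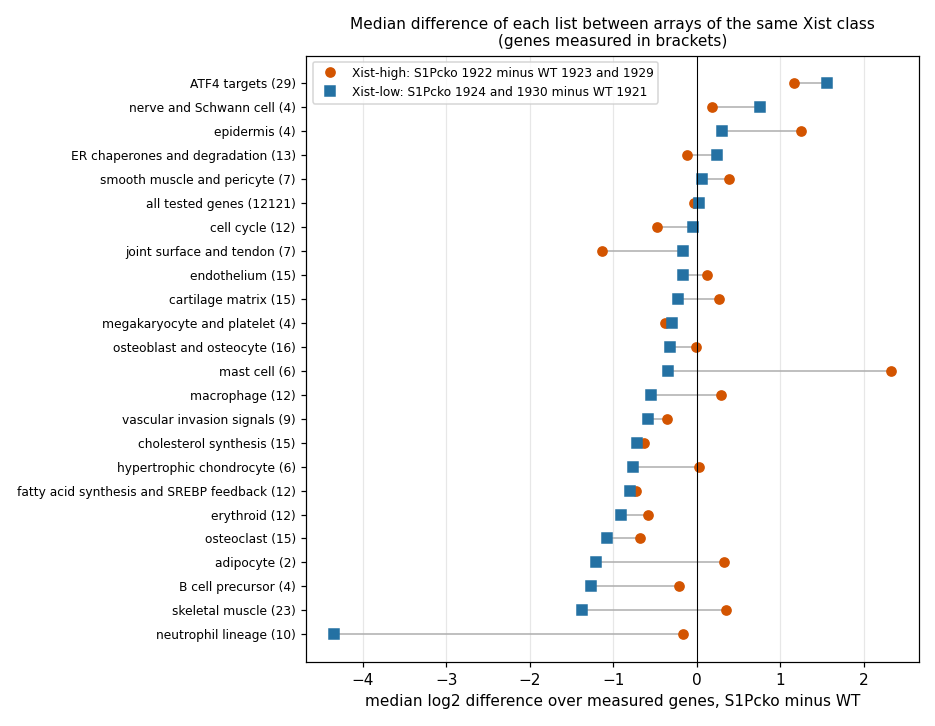
Median log2 difference, S1Pcko minus WT, over the measured genes of each list (number in brackets), for the Xist-high arrays (circles, S1Pcko 1922 minus WT 1923 and 1929) and the Xist-low arrays (squares, S1Pcko 1924 and 1930 minus WT 1921). ATF4 targets lie right of 0 and cholesterol, osteoclast and erythroid genes left of 0 in both contrasts, while neutrophil genes are at -0.16 and -4.34.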

How the data were processed

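Amplified RNA had been read on Illumina bead arrays of the MouseWG-6 v1.1 design (46643 probes). The authors deposited intensity values that had not been normalized, each with a detection p-value against the negative controls of its array, per the file headers. The deposited normalized intensity values of the authors, with values under 16 raised to 16 before log2, served as an alternative. Signals were background-corrected with neqc (limma 3.58.1, R 4.3.3, offset 16) and quantile normalized over all 12 arrays on the log2 scale. Between 20555 and 21978 probes were detected per array, the lowest of them at a log2 signal of 4.96 to 5.09, and the small number of arrays limits the precision. Probes with a detection p under 0.05 on 2 or more of the 6 long bone arrays were tested (22653, of which 17745 have 1 gene symbol). limma was fitted to the 4 groups of cartilage and long bone on 10 arrays (6 residual degrees of freedom, prior 4.98), and p values were adjusted over all tested probes by the method of Benjamini and Hochberg. The paper's methods name a 2-way ANOVA with a false discovery rate of 5% and a 2-fold threshold. Of 344 listed genes 254 were measured. Named are the 12 largest rises and falls without overlap and the called members of each list up to 6. The rule also took the 3 brightest members of each list, only some of which are named (Matn1, Comp, Acta1 and Ramp2 are not). Others named were chosen after their values were seen. Members and lists were chosen with earlier results of these data known. Scripts were tested on simulated data. Alternatives changed the background, scaling, filter, arrays, prior, weights and blocks.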

Additional observations from a re-analysis of the deposited data

Results flagged for a closer look

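For 12 genes named here the change in long bone differed from that in cartilage by the interaction term of the limma fit (long bone minus cartilage, log2). For Pdgfd, Gdi2 and Atf4 only the brightest probe differed. The difference was positive for Pdgfd (4.43), Lor (4.18), Sparc (3.61), Rmst (2.59) and Mmp3 (2.09), and negative for Gdi2 (-3.38), Ocstamp (-2.66), Ibsp (-2.46), Atf4 (-2.38), Ifitm5 (-2.32), Ctsk (-2.13) and Dcstamp (-1.51). Lor, loricrin of the cornified skin layer, was at 7.68, 7.05 and 7.26 on S1Pcko long bone arrays and 6.39, 6.53 and 6.81 on WT long bone arrays (change 0.76, adjusted p = 0.0731), and its change in cartilage was -3.42. The cartilage side rests on 1 RNA per genotype, and none of these differences was called with amplifications averaged.

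Calvaria, 1 array per genotype and used in no comparison, showed a 2-fold or larger difference (S1Pcko minus WT, log2, no test) for 16 of 164 genes named here or chosen by the naming rule. In 13 of them the sign was that of the long bone change: Eif2s3y at 3.61, Prph at 2.34, C4a at 2.17, Cxcl1 at 1.87, Cxadr at 1.48, Slc7a3 at 1.36, Sox10 at 1.32, Atf5 at 1.16, Mt3 at -1.04, Hbb-y at -1.18, Hba-x at -1.32, Myl2 at -2.57 and Xist at -5.73. In 3 it was the opposite: S100a8 at 1.96, Mbp at 1.13 and Hp at 1.1. The sex markers Xist and Eif2s3y, which count among the 13, were not matched between the genotypes in calvaria, and Prph, Hbb-y and Hba-x were not called in long bone. The counts of genes and of signs are a description. The same shares over all genes were not taken, so the counts cannot be set against a background.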

How the results depend on the processing

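No called gene changed direction. The total of 244 probes was 114 without background correction, 103 without the eBayes prior, 463 with array weights, 21 with the first amplification round alone, 23 with amplifications averaged, and 156 to 572 when each array was left out, the highest without 1922. The 146 higher probes were 68 without background correction, 75 without the prior, 19 with the first round and 21 averaged. The 98 lower probes were 46 without background correction, 58 without a filter, 64 on the 6 long bone arrays alone, 28 without the prior, 246 with weights, 2 with the first round, 2 averaged, 58 with Xist class as a block, and 49 to 363 with each array left out. The 50 difference probes were 9 without the prior, 395 with weights, 23 with the replicate block, 0 with the first round, 0 averaged, and 16 to 403 with each array left out. The label numbers, 3 and 4 in long bone, go with the amplification round and pair no samples. With this replicate block, 212 probes were called, 133 higher and 79 lower. Of 41 named genes called, 12 kept the call in all settings and 28 whichever array was left out. Detection limits the folds of genes absent from 1 genotype to lower bounds.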

Other observations

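Plk1, a mitotic kinase of the cell cycle list, was at 9.15, 4.81 and 5.20 on S1Pcko arrays 1922, 1924 and 1930 and at 9.60, 4.81 and 4.80 on WT arrays 1921, 1923 and 1929, high on 1 array of each genotype, while Mki67 was between 10.06 and 10.15 on the S1Pcko arrays and between 10.32 and 10.86 on the WT arrays. The 2 arrays on which the Plk1 probe was high belong to different Xist classes. Complement genes C4a and C4b were higher in S1Pcko bones (1.67 and 1.47), and Cxcl1, a chemokine that attracts neutrophils, was higher by 2.49 (adjusted p = 0.000553), at 7.74, 8.70 and 8.68 on the S1Pcko arrays and 5.91, 5.97 and 5.79 on the WT arrays. C4a and C4b are near-identical copies whose probes may cross-react, and both lost their call without 1924, 1930, 1923 or 1929.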
